A study of Mus musculus with 6 samples.

Results

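The genes described here are 10 transcription regulators that establish and maintain B cell identity, the factors Pax5, Ebf1, Ikzf1, Ikzf3, Spi1 and Spib, the E proteins Tcf3 and Tcf4, and the Id proteins Id2 and Id3. They were chosen by name, as the rows of the expression table whose Ensembl gene identifiers carry these symbols. All 10 genes were found among the 39179 genes of the table. The second identifier that carries the name Ebf1 (ENSMUSG00000078561) was listed at 0 in every pool and was left out. Expression was measured by RNA-Seq in germinal center (GC) B cells and in naive B cells, which the study also calls resting, of the Peyer's patches, which are lymphoid organs in the wall of the small intestine. Both populations came from WT female C57BL/6 mice aged 12 weeks. GC B cells were sorted as Fas+GL7+ B cells and naive B cells as Fas-GL7- B cells, with 3 replicates of each, and each replicate was a pool of several littermates. Each sorted population can hold cells at several stages, such as dividing and nondividing cells of the GC.

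B cell identity rests on a small network of DNA-binding proteins. Ebf1 and the E proteins act early in the lineage and open the genes of the B cell receptor, and Pax5 then commits the cell by activating B cell genes and repressing genes of other lineages. E proteins are basic helix-loop-helix factors that bind the E box (CANNTG) as dimers. Id proteins have the helix-loop-helix but lack the basic region, so that a dimer of an E protein with an Id protein does not bind DNA. Ikaros (Ikzf1) and Aiolos (Ikzf3) are zinc finger proteins of the same family, and PU.1 (Spi1) and Spi-B (Spib) are related Ets factors that bind sites with a GGAA core and have overlapping roles in B cells.

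The 250 bases before an annotated start site are shown for Id2 and Tcf3, which rose, and for Pax5 and Ebf1, which fell in GC B cells. E boxes are marked because E proteins bind them, and whether E or Id proteins act on these windows was not tested. The sequences are from RefSeq (GRCm38.p6, the assembly on which the authors' transcriptome is based), are written 5′ to 3′ on the strand of the gene, and carry each CANNTG in capitals. Id2 lies on the minus strand (chr12:25096093-25096342), as do Tcf3 (chr10:80433636-80433885) and Pax5 (chr4:44710695-44710944). The Tcf3 window lies within the span of the gene, which reaches 80433976, so it precedes an internal start. Ebf1 lies on the plus strand and has an upstream start (chr11:44617850-44618099) and a downstream start (chr11:44619978-44620227).
Id2: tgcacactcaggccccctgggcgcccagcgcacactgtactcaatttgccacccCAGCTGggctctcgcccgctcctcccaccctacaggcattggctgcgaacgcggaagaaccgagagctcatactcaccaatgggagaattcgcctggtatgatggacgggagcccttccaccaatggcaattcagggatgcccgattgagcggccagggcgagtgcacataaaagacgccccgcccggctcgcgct
Tcf3: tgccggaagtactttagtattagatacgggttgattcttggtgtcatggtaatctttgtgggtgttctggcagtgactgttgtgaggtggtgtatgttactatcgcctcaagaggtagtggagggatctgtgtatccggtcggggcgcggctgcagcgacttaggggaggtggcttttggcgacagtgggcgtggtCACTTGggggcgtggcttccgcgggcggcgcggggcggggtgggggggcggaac
Pax5: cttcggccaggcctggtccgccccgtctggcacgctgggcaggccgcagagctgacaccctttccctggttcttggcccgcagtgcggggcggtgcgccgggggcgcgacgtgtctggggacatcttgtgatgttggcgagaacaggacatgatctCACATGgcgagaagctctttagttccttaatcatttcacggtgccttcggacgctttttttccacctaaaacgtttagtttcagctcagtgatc
Ebf1 upstream start: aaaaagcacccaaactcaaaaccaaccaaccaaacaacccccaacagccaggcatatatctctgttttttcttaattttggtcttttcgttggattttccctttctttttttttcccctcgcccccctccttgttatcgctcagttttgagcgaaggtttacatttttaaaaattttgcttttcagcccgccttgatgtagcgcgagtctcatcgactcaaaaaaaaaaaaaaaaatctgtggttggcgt
Ebf1 downstream start: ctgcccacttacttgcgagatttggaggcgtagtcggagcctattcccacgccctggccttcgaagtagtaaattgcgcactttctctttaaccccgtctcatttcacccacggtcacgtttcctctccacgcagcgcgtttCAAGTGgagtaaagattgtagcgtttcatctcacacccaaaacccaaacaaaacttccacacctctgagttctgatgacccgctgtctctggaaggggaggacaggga

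Id2 had 1 E box, CAGCTG, beginning 196 bases before the start, and Tcf3 had CACTTG 54 bases before its internal start. Pax5 had CACATG at 94 bases. Ebf1 had CAAGTG 108 bases before its downstream start and none in the upstream window. Windows were held for 7 of the 10 genes, 9 windows in all, and 5 of the 9 contained CANNTG, against 66.2% of all 32841 windows of this length. Spib had 2 E boxes, CAGATG and CATGTG, at 165 and 136 bases, and Ikzf1 and Id3 had none. The windows of Ikzf1 also lie within the span of that gene. Among the particular forms of the E box, CAGCTG occurred in 1 window, that of Id2, and in 13.0% of all windows, whereas CAGGTG (17.2% of all windows) and CACGTG (6.02%) occurred in none of the 9. The GGAA core was in 8 of the 9 windows and in 93.5% of all windows. The longer Ets motif AGGAAGT, which contains that core, was in none (7.69% of all). The Ikaros motif TGGGAA, which also contains GGAA, was only in the downstream window of Ebf1 (21.6% of all). Both strands were searched for each motif. A match is a description of letters and not evidence of binding.

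The pools carried the markers of their labels. Fas, whose product was in the sort, was between 108 and 119 TPM in GC pools and between 3.03 and 3.59 TPM in naive pools, where TPM, a transcript level, is the deposited FPKM of a gene divided by the sum of its pool and multiplied by 1000000, so that it is corrected for transcript length. All 6 GC markers examined were higher in GC B cells, and all 6 markers of resting B cells were lower. In the test described below, 35.5% of all tested genes were called higher and 30.1% lower. Fas is among the GC markers, and its direction follows from the sort. Depth was estimated from the smallest steps between low FPKM values at between 9700000 and 16200000 reads per pool. At these depths between 68.2% and 75.7% of the values were within 0.15 of a whole number of reads, so the estimate is approximate. The depth was chosen to bring the same values close to whole numbers, so these shares are not an independent check of it. Pearson's r on the log2(TPM + 1) scale, across genes, was between 0.963 and 0.972 for pairs of pools of the same population and between 0.806 and 0.814 between populations. The median coefficient of variation was 6.46% in GC and 8.05% in naive pools for genes from 10 to 100 TPM, and 19.6% and 18.6% for genes from 1 to 10 TPM.

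Of the 10 regulators, 5 rose and 2 fell in GC B cells, and 3 did not pass the test. Those that rose were both E proteins, both Ikaros family members and Id2. Those that fell were Pax5 and Ebf1. Id3, Spi1 and Spib were not called. The test was limma on log2(TPM + 1) over the 12785 genes that reached 1 TPM in 3 or more pools, with Benjamini-Hochberg adjustment over all of them and a threshold of 0.05, and all 10 genes passed this filter. In the same test 65.6% of all genes were called, 35.5% higher and 30.1% lower, so that 7 of 10 called is near the background. The GC pools lay above all naive pools for 6 of the genes, the 5 that rose and Spi1, and below them for Pax5 and Ebf1, whereas 37.8% of all tested genes had the GC pools above, 32.8% had them below, and 70.7% did not overlap in one direction or the other. In bulk RNA from a sorted pool, fewer cells that express a gene and less RNA per cell cannot be told apart.

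**Figure D1:**
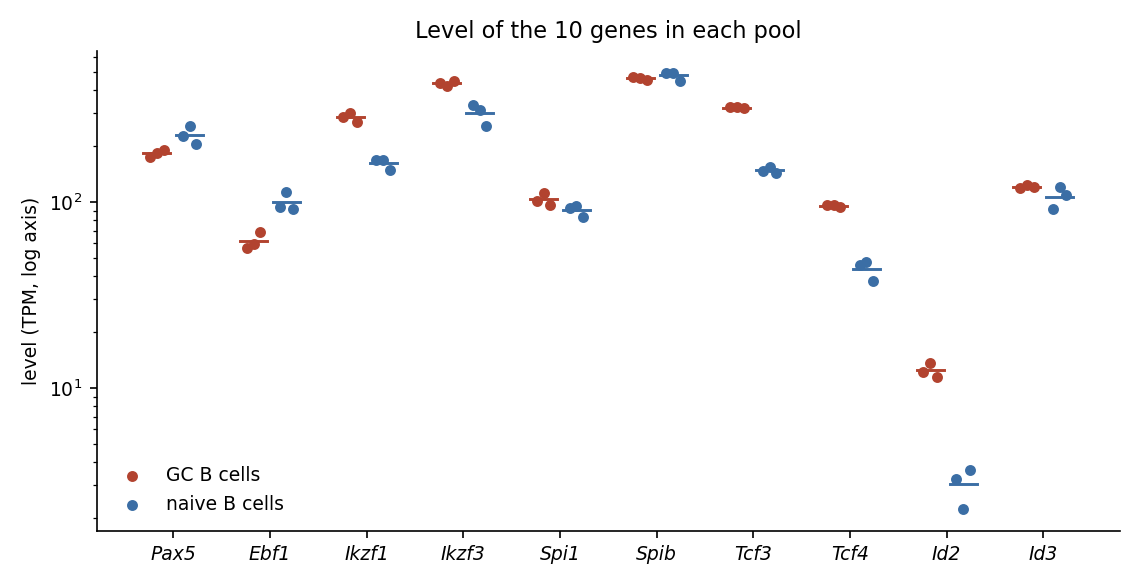
Level of each gene in TPM on a log axis, with 1 point per pool (3 GC pools, 3 naive pools) and a line at the mean. Spib is highest and Id2 lowest in both populations. The GC and naive points of Tcf3, Tcf4, Ikzf1, Ikzf3 and Id2 are separated with GC above, and those of Spi1 narrowly so. The points of Pax5 and Ebf1 are separated with GC below.

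The levels covered a wide range. In GC B cells the order from the highest mean was Spib (462 TPM), Ikzf3 (435), Tcf3 (322), Ikzf1 (286), Pax5 (183), Id3 (121), Spi1 (103), Tcf4 (95.6), Ebf1 (61.6) and Id2 (12.5 TPM). Among neighbours in this order only Spi1 and Tcf4 overlapped between pools. In naive B cells the order was Spib (479 TPM), Ikzf3 (300), Pax5 (229), Ikzf1 (162), Tcf3 (149), Id3 (107), Ebf1 (99.6), Spi1 (90.2), Tcf4 (43.7) and Id2 (3.04 TPM), and the neighbours Ikzf1 and Tcf3, Id3 and Ebf1, and Ebf1 and Spi1 overlapped. Spib and Ikzf3 therefore held the first places and Id2 the last in both populations, while Pax5 stood above Tcf3 in naive B cells and below it in GC B cells. Of the tested genes, 97.7% had a lower mean than Spib in GC B cells and 98.0% in naive B cells. The corresponding shares for Id2 were 39.6% and 18%. The coefficient of variation was lower in GC than in naive pools for 9 of the 10 genes. The SD in TPM was larger in GC pools for Ikzf1, Id2 and Spi1. Naive replicate 3 was the lowest naive pool for all 10 genes but Id2 and Id3. Its scale factor, the median over genes of the level relative to the mean of all pools, was 0.9513. In the other pools this factor was between 1.0048 and 1.0204. What naive replicate 3 adds to the naive spread was not tested. A lower variation in GC pools was not particular to these genes. For all genes from 100 TPM the median coefficient of variation was 3.68% in GC and 5.74% in naive pools.

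Pax5 (ENSMUSG00000014030; chromosome 4, 44524748 to 44710694 in GRCm38.p6) encodes the paired domain factor of B lineage commitment. GC replicates 1, 2 and 3 had 175, 184 and 191 TPM, and naive replicates 1, 2 and 3 had 226, 257 and 204 TPM. Every GC pool was below every naive pool, but the gap between 191 and 204 TPM was narrow beside the spread of the naive pools. GC B cells averaged 183 ± 8.11 TPM and naive B cells 229 ± 26.7 TPM (SD, n = 3 for each), 1.25 times the GC level. On the log2 scale the change was -0.31 (SE 0.089, adjusted p = 0.0192 in limma). Without GC replicate 1, the fold change was -0.28 and the adjusted p in limma was 0.0624, so Pax5 was not called. The adjusted p in limma was 0.049 without GC replicate 2 and 0.0489 without naive replicate 1. The call was thus close to the threshold when any of these pools was left out. A larger change was found in 67.6% of all tested genes.

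Ebf1 (ENSMUSG00000057098; chromosome 11, 44618100 to 45008096), the early factor that activates Pax5 and genes of the B cell receptor, fell further. It had 56.8, 59.2 and 68.8 TPM in the GC pools, against 94.2, 113 and 91.2 TPM in the naive pools. The groups did not overlap. Naive B cells had 1.62 times the level of GC B cells, with means of 99.6 ± 12.0 TPM against 61.6 ± 6.37 TPM (SD, n = 3 for each). This was a log2 fold change of -0.68 (SE 0.11, adjusted p = 0.00162 in limma). The ratio of Pax5 to Ebf1 within a pool was 3.08, 3.10 and 2.78 in the GC pools and 2.40, 2.27 and 2.24 in the naive pools. It was higher in every GC pool, a mean difference of 0.38 on the log2 scale.

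Ikzf1 (ENSMUSG00000018654; chromosome 11, 11684962 to 11772930) encodes Ikaros, which silences and activates lymphoid genes and restrains early B cell proliferation. It had 287, 300 and 271 TPM in the GC pools, against 168, 169 and 149 TPM in the naive pools. All GC pools were far above all naive pools. The GC level was 1.77 times the naive level, with means of 286 ± 14.4 TPM and 162 ± 11.3 TPM (SD, n = 3 for each), and the log2 fold change was 0.82 (SE 0.067, adjusted p = 6.94e-05 in limma).

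Ikzf3 (ENSMUSG00000018168; chromosome 11, 98464610 to 98546031) encodes Aiolos, which dimerizes with Ikaros and is more restricted to lymphocytes. It had 435, 419 and 450 TPM in the GC pools, against 331, 312 and 257 TPM in the naive pools. The groups did not overlap, and naive replicate 3 was the lowest pool. The GC level was 1.45 times the naive level, and the log2 fold change was 0.54 (SE 0.095, adjusted p = 0.00257 in limma), which is a smaller change than in 50% of all tested genes. Ikzf3 was more abundant than Ikzf1 in every pool. Ikzf1 made up 39.7 ± 2.06% of their summed TPM in GC and 35.1 ± 1.5% in naive B cells (SD, n = 3 for each), and the ratio of Ikzf1 to Ikzf3 was between 0.603 and 0.716 in GC pools and between 0.506 and 0.577 in naive pools. Summed, both genes reached 722, 719 and 721 TPM in the GC pools, against 499, 480 and 406 TPM in the naive pools.

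Spi1 (ENSMUSG00000002111; chromosome 2, 91082374 to 91115759) encodes PU.1, which is also a main regulator of myeloid cells. It had 101, 112 and 96.7 TPM in the GC pools, against 92.6, 95.3 and 82.7 TPM in the naive pools. The GC pools were all above the naive pools. Its log2 fold change was 0.19 (95% interval 0.00 to 0.38) with an adjusted p of 0.0699 in limma, and it was not called. It was 0.05 under quantile normalization (adjusted p = 0.554) and 0.10 after correction for GC content and length (adjusted p = 0.256). Spib (ENSMUSG00000008193; chromosome 7, 44525995 to 44532087) encodes Spi-B, which among blood cells is more confined to B cells and plasmacytoid dendritic cells. It had 469, 464 and 453 TPM in the GC pools, against 494, 497 and 447 TPM in the naive pools. The groups overlapped. Its log2 fold change was -0.05 (95% interval -0.18 to 0.07, adjusted p = 0.42 in limma). Under quantile normalization, which forces the same distribution on every pool, it was -0.21 with an adjusted p of 0.00444 in limma, and it was -0.10 with an adjusted p of 0.046 without naive replicate 3. Spib made up 81.7 ± 1.02% of the summed TPM of both genes in GC and 84.2 ± 0.234% in naive B cells (SD, n = 3 for each).

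**Figure D2:**
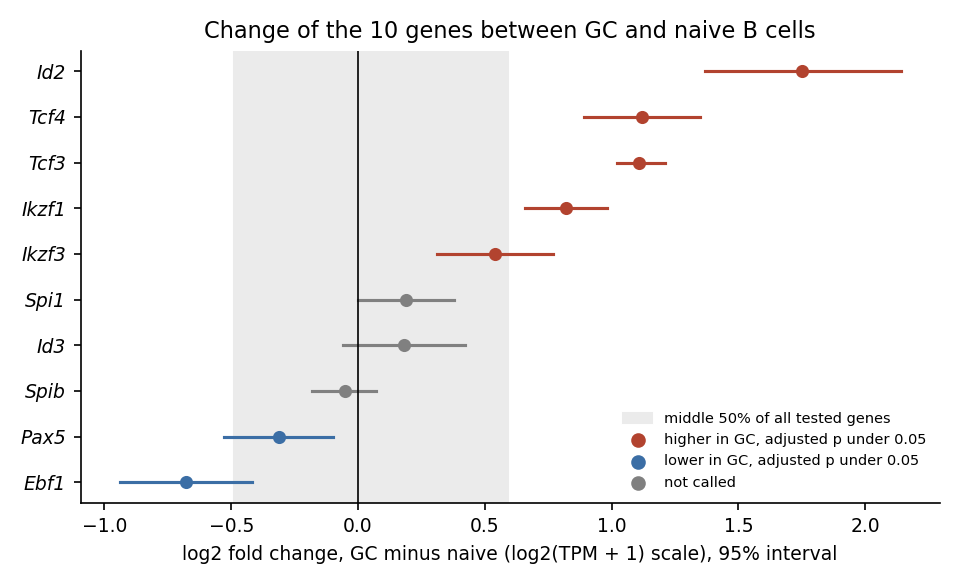
Log2 fold change of each gene, GC relative to naive (points, on the log2(TPM + 1) scale) with its 95% interval from limma over 3 GC and 3 naive pools. Colours mark the call at an adjusted p under 0.05, and the grey band spans the middle 50% of all tested genes (-0.49 to 0.59). Id2, Tcf4, Tcf3 and Ikzf1 lie to the right of the band and Ebf1 to its left.

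Both E proteins more than doubled their level in GC B cells. Tcf3 (ENSMUSG00000020167; chromosome 10, 80409541 to 80433976) encodes E12 and E47, splice forms that a value per gene does not separate. It had 323, 323 and 321 TPM in the GC pools, against 147, 154 and 144 TPM in the naive pools. The GC pools were nearly identical, with a coefficient of variation of 0.331%. The GC level was 2.17 times the naive level, with a log2 fold change of 1.11 (SE 0.040, adjusted p = 1.77e-06 in limma).

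Tcf4 (ENSMUSG00000053477) encodes the E protein also required by plasmacytoid dendritic cells. It had 96.0, 97.0 and 93.8 TPM in the GC pools, against 45.9, 47.9 and 37.4 TPM in the naive pools. No naive pool came near the GC pools. The GC level was 2.19 times the naive level, with a log2 fold change of 1.12 (SE 0.095, adjusted p = 8.75e-05 in limma). The changes of both E proteins were thus of about the same size. The ratio of Tcf3 to Tcf4 was 3.37, 3.33 and 3.42 in the GC pools and 3.21, 3.22 and 3.86 in the naive pools, and Tcf4 made up 22.9 ± 0.258% of their sum in GC and 22.7 ± 1.82% in naive B cells (SD, n = 3 for each). The mean log2 ratio differed by -0.02 between the populations, less than the SD of 0.15 among naive pools.

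The third E protein gene, Tcf12, went the other way. It had 30.5, 25.8 and 28.7 TPM in the GC pools, against 37.1, 40.1 and 33.2 TPM in the naive pools, with a log2 fold change of -0.37 (SE 0.096, adjusted p = 0.0143 in limma). The groups did not overlap. Tcf3 was 11.4 ± 0.959 times as abundant as Tcf12 in GC B cells and 4.05 ± 0.265 times in naive B cells (SD, n = 3 for each). All 3 E protein genes together were between 444 and 450 TPM in GC pools and between 215 and 242 TPM in naive pools.

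Id2 (ENSMUSG00000020644; chromosome 12, 25093799 to 25096092) had the largest change of the 10 genes at the lowest level. It had 12.2, 13.7 and 11.5 TPM in the GC pools, against 3.24, 2.24 and 3.63 TPM in the naive pools. The lowest GC pool was well above the highest naive pool. The GC level was 4.11 times the naive level, with means of 12.5 ± 1.14 TPM and 3.04 ± 0.713 TPM (SD, n = 3 for each). Its log2 fold change was 1.75 (SE 0.16, adjusted p = 0.000117 in limma), and the pseudocount of 1 understates a change at this level. Only 12.0% of all tested genes changed more. Id2 is also expressed in innate lymphoid cells, T cells, myeloid cells and gut epithelium, whose markers are given below.

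Id3 (ENSMUSG00000007872; chromosome 4, 136143822 to 136145392), which in lymphocytes is induced by antigen receptor signaling, was the more abundant Id gene in every pool. It had 119, 123 and 120.0 TPM in the GC pools, against 91.8, 120.0 and 109 TPM in the naive pools. The groups overlapped, since naive replicate 2 was above GC replicate 1, and naive replicate 1 was the lowest pool. The log2 fold change was 0.18 (95% interval -0.06 to 0.42, adjusted p = 0.149 in limma). Without naive replicate 2 it was 0.27 with an adjusted p of 0.0375 in limma, without naive replicate 1 it was 0.08 (adjusted p = 0.341), and under quantile normalization it was 0.05 (adjusted p = 0.689). Of the other Id genes, Id1 was between 0.496 and 1.09 TPM in GC and between 0.756 and 1.56 TPM in naive pools (log2 fold change -0.30, adjusted p = 0.25 in limma), and Id4 was listed at 0 in every pool.

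The balance of E to Id transcripts was higher in GC B cells. Summed TPM of Tcf3 and Tcf4 was 3.21, 3.07 and 3.14 times that of Id2 and Id3 in the GC pools and 2.03, 1.65 and 1.61 times in the naive pools. The GC pools were above all naive pools, and the mean difference on the log2 scale was 0.84, against SDs of 0.032 in GC and 0.18 in naive pools. With Tcf12 and Id1 added, the ratio was between 3.23 and 3.43 in GC pools and between 1.89 and 2.40 in naive pools. Within the Id genes the makeup shifted. Id3 was 9.74, 8.96 and 10.5 times as abundant as Id2 in the GC pools and 28.3, 53.5 and 30.1 times in the naive pools, and Id2 made up 9.36 ± 0.659% of their sum in GC and 2.82 ± 0.859% in naive B cells (SD, n = 3 for each). These ratios are given as a description, without a test. Levels of RNA do not give the amounts of the proteins or of their dimers.

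**Figure D3:**
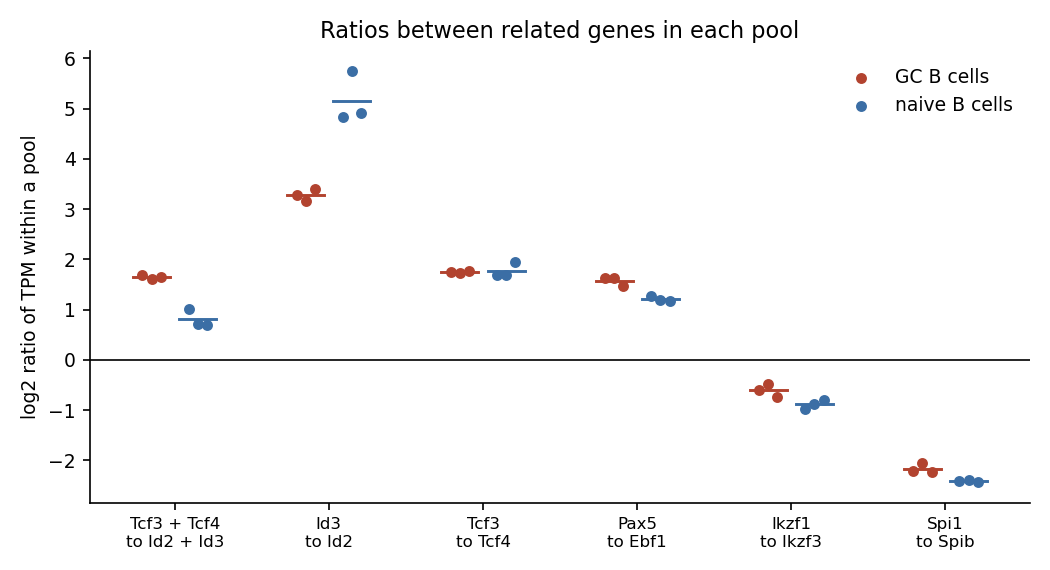
Log2 ratios of TPM between related genes within each pool, with 1 point per pool (3 GC, 3 naive) and a line at the mean. The ratio of E to Id genes is higher in all GC pools, the ratio of Id3 to Id2 is lower in all GC pools, and the ratio of Tcf3 to Tcf4 overlaps.

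Close relatives of these genes were mostly low. Of 10 family members examined, 6 were under 1 TPM in every pool: Ikzf2 and Ikzf4, and Ebf2, Ebf3, Ebf4 and Id4, the last 4 listed at 0 throughout. The 4 that could be tested were Ikzf5, Tcf12, Id1 and Spic, of which 2 fell, none rose, and 2 were not called. They are too few to set against the 65.6% of all tested genes that were called (35.5% higher and 30.1% lower). Ikzf5 was between 20.5 and 25.7 TPM in GC and between 20.1 and 22.7 TPM in naive pools (log2 fold change 0.14, adjusted p = 0.292 in limma). Spic, an Ets factor related to Spi-B and best known in macrophages of the spleen, had 2.73, 2.46 and 2.31 TPM in the GC pools, against 6.43, 6.68 and 6.05 TPM in the naive pools. Its log2 fold change was -1.08 (SE 0.11, adjusted p = 0.000171 in limma).

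Of 18 transcription factors that act beside these regulators in B cells, 5 rose, 8 fell and 5 were not called, a share called that is near the background of 65.6% (35.5% higher and 30.1% lower). Their median log2 fold change was -0.10, beside 0.03 over all tested genes. The largest increases were in Mef2b, a factor of GC B cells, E2f2, a cell cycle factor, and Pou2af1, the B cell coactivator of octamer-binding factors. Pou2af1 had 914, 917 and 944 TPM in the GC pools, against 263, 269 and 278 TPM in the naive pools (log2 fold change 1.77, adjusted p = 2.85e-07 in limma). E2f2 was between 89.2 and 101 TPM in GC and between 22.5 and 27.2 TPM in naive pools (1.92 on the log2 scale). Mef2b had 347, 254 and 413 TPM in the GC pools, against 0.122, 0 and 5.65 TPM in the naive pools, where naive replicate 3 stood apart. The largest decreases were in Zeb2, a zinc finger repressor (log2 fold change -1.86), Irf4 (-1.76), which pairs with PU.1 and Spi-B on composite sites, and Runx3, a Runt domain factor (-1.70). Irf4 was between 21.2 and 22.1 TPM in GC and between 70.1 and 79.6 TPM in naive pools. Irf8, the other factor that pairs with PU.1, was between 410 and 422 TPM in GC and between 426 and 464 TPM in naive pools, and was not called (log2 fold change -0.11, adjusted p = 0.0732 in limma).

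Genes that Pax5 or Ebf1 are known to activate were mostly lower in GC B cells. Of 18 such genes, 16 fell and 2 rose, with a median log2 fold change of -0.99 beside 0.03 over all tested genes, and 30.1% of all tested genes were called lower. The largest decreases were in Cd55, a complement regulator, Cd72, a coreceptor that restrains B cell receptor signaling, and Bank1, a signaling adaptor. Cd72 had 111, 100.0 and 114 TPM in the GC pools, against 1230, 1300 and 1220 TPM in the naive pools (log2 fold change -3.52, adjusted p = 1.55e-07 in limma). Cd55 was between 3.26 and 5.87 TPM in GC and between 222 and 255 TPM in naive pools (-5.39), and Bank1 was between 41.3 and 46.6 TPM and between 289 and 320 TPM (-2.76). The receptor component Cd79a was between 1060 and 1100 TPM in GC and between 2320 and 2400 TPM in naive pools (-1.12). Those that rose were Ms4a1 (log2 fold change 0.38), the gene of CD20, and the adaptor Blnk (0.30). Cd79a is named because it defines B cells.

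Genes that Pax5 is known to repress did not move as 1 group. Of 12 such genes, 8 could be tested, of which 4 rose and 4 fell, beside 35.5% and 30.1% of all tested genes. Their median log2 fold change was 0.71, against 0.03 over all tested genes. The largest increases were in Igj, the joining chain of secreted IgA and IgM, Flt3, a cytokine receptor of progenitors, and Emb, an adhesion molecule. Flt3 had 29.6, 31.9 and 32.9 TPM in the GC pools, against 1.4, 1.01 and 1.32 TPM in the naive pools (log2 fold change 3.86, adjusted p = 6.69e-07 in limma). Igj was between 656 and 693 TPM in GC and between 22.1 and 40.3 TPM in naive pools (4.33), and Emb was between 9.46 and 11.2 TPM and between 1.02 and 1.49 TPM (2.33). The largest decrease was in Grap2, a T cell adaptor, which had 1.89, 2.59 and 1.31 TPM in the GC pools, against 65.2, 67.3 and 54.1 TPM in the naive pools (-4.45). Notch1, a receptor that directs progenitors to the T lineage (-1.03), and Sdc1, the gene of the plasma cell surface protein CD138 (-0.75), followed. Csf1r, Cd28, Ccr2 and Cd33, genes of myeloid cells and T cells, were under 1 TPM in every pool.

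**Figure D4:**
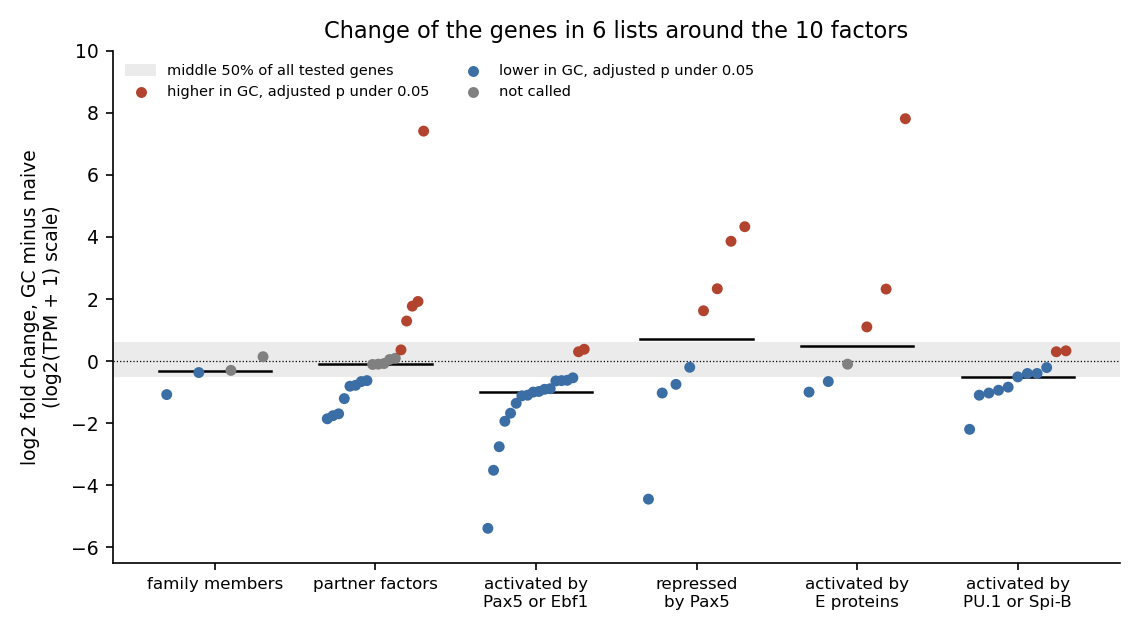
Log2 fold change between GC and naive B cells (log2(TPM + 1) scale) of each tested gene in 6 lists, sorted within a list, with a line at the median and colours for the call at an adjusted p under 0.05. The grey band spans the middle 50% of all tested genes. Most points of the genes activated by Pax5 or Ebf1 and by PU.1 or Spi-B lie below 0.

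Of 12 genes known to be activated by E proteins, 6 could be tested, of which 3 rose, 2 fell and 1, Foxo1, was not called, too few to set against the 65.6% of all tested genes that were called (35.5% higher and 30.1% lower). Among those that rose, Bcl6, the repressor that defines the GC program, was between 242 and 258 TPM in GC and between 46.9 and 51.6 TPM in naive pools (log2 fold change 2.32, adjusted p = 3.34e-07 in limma), and the cell cycle inhibitor Cdkn1a was between 9 and 10.3 TPM and between 2.49 and 5.29 TPM (1.10). Those that fell were Cxcr5, the follicular chemokine receptor (-1.0), and Gfi1, a zinc finger repressor (-0.66). The targets of early B cell development, Rag1, Rag2, Igll1, Vpreb1, Dntt and Il7r, were under 1 TPM in every pool.

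Genes activated by PU.1 or Spi-B were mostly lower in GC B cells, whereas Spi1 and Spib themselves were not called. Of 12 genes, 11 could be tested, of which 2 rose and 9 fell, beside 35.5% and 30.1% of all tested genes. Their median log2 fold change was -0.51, against 0.03 over all tested genes. P2ry10, a lysophospholipid receptor gene, had 15.5, 16.1 and 17.2 TPM in the GC pools, against 80.5, 79.0 and 74.8 TPM in the naive pools (log2 fold change -2.20, adjusted p = 7.64e-07 in limma). Tlr9, which senses DNA, was between 40.1 and 42.4 TPM in GC and between 77.9 and 95.8 TPM in naive pools (-1.10), and the inhibitory Fc receptor gene Fcgr2b was between 113 and 122 TPM and between 230 and 263 TPM (-1.03). The kinase gene Syk (0.33) and Blnk (0.30), which is also in the list of genes activated by Pax5 or Ebf1, rose. Gene lists of this kind overlap, and they describe these pools without a test of the list. All the lists were chosen with earlier results of these data known. Their counts and medians are therefore not independent of the data when set beside all tested genes.

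Genes with the most similar course over the 6 pools were found by the Euclidean distance between log2(TPM + 1) values centred on the mean of each gene. The nearest to Tcf3 were Gm5641, Tcp1 and Brms1l (distances 0.049, 0.056 and 0.056), and the nearest to Tcf4 were Atxn7l1, Mll1 and Nf1 (0.053, 0.078 and 0.085). The nearest to Ikzf1 were Csnk2b, Kcnk5 and Caprin1 (0.063, 0.068 and 0.081), and to Ikzf3 they were Prkdc, Setd7 and Dnttip1 (0.065, 0.090 and 0.10). For Pax5 they were Phtf2, Usp54 and Pdcd2 (0.083, 0.087 and 0.091), and for Ebf1 they were Zfp647, Fbxl5 and Polr3gl (0.10, 0.12 and 0.13). Id2 had no close neighbour. Its nearest genes, Snrpd1, 1810062O18Rik and Tmed6, were at 0.18, 0.19 and 0.24, and only 2 genes lay within 0.2, against 134 for Tcf3 and 579 for Spib. The nearest to Id3 were Wdr70, Gtpbp10 and Ccdc84 (0.075, 0.11 and 0.12), to Spi1 they were Tpst1, Plcg1 and Cpt2 (0.094, 0.098 and 0.099), and to Spib they were Rest, Stim1 and Tox4 (0.034, 0.039 and 0.051). Gm5641 is a predicted gene model, and whether its reads are shared with a copy was not tested. With 6 pools in 2 populations, such likeness is mostly a likeness of the fold change.

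Several of the 10 genes are also expressed in other cells of the Peyer's patch, and the markers of those cells are given here beside them. All 5 T cell markers were under 2 TPM in every pool, with sums between 1.65 and 3.51 TPM in GC and between 1.72 and 2.46 TPM in naive pools. The 4 markers of innate lymphoid cells summed to at most 0.623 TPM in GC and 0.71 TPM in naive pools, and Ncr1 was listed at 0. The 3 M cell markers summed to at most 0.496 and 1.01 TPM, and Gp2 was listed at 0. Of the 7 myeloid markers, 3 were tested, with Cd68 higher in GC B cells (log2 fold change 1.04), Mpeg1 lower (-0.29) and Lyz2 not called (-0.90, adjusted p = 0.0618 in limma). Their sums were between 20.9 and 24.9 TPM in GC and between 18.3 and 24.2 TPM in naive pools. Of the 4 markers of plasmacytoid dendritic cells, which express Tcf4 and Spib, Pacsin1 was between 31.5 and 35 TPM in GC and between 19.5 and 24.0 TPM in naive pools (0.61), while Siglech was at most 0.209 TPM and Klk1 at most 0.401 TPM. Ccr9 was between 0.0692 and 0.138 TPM in GC and between 0.365 and 0.424 TPM in naive pools. These values are below the 1 TPM filter, and Ccr9 was not tested.

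The 6 epithelial markers summed to 22.2, 38.0 and 33.7 TPM in the GC pools and to 76.1, 47.7 and 55.4 TPM in the naive pools. Of the 5 tested, Epcam, Krt8 and Vil1 were lower in GC B cells, Krt18 was higher and Krt19 was not called (log2 fold change -0.86, adjusted p = 0.0691 in limma). Of the 4 plasma cell markers, Igj and Prdm1 were higher and Xbp1 and Sdc1 lower in GC B cells. Sdc1 was between 0.927 and 1.95 TPM in GC and between 2.62 and 3.66 TPM in naive pools. The part of these cells in the changes of the 10 genes was not tested.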

How the data were processed

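RNA-Seq of 3 GC and 3 naive B cell pools was analysed. The authors removed adapters with cutadapt 1.9, aligned and quantified reads on the mouse transcriptome (NCBIm38) with RSEM 1.2.25, and deposited FPKM per gene with 2 decimals. The submitters' processing notes also name edgeR, without a role, and no further scaling is stated. FPKM depends on the transcript lengths and on how RSEM divides reads between similar genes, and the labels do not state a strand.

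FPKM was rescaled to TPM per pool. Symbols came from the NCBIM37 annotation (33398 of 39179 identifiers), and RefSeq synonyms supplied 3 of the 126 list symbols. The difference between GC and naive pools was fitted on log2(TPM + 1) by limma 3.58.1 (R 4.3.3, eBayes with a trend). Other steps used Python 3.11.15, pandas 2.3.3, numpy 2.4.6 and matplotlib 3.10.9. The fit was tested on simulated data. The members and gene lists were chosen with earlier results of these data known. Named genes are the 10 members, their relatives, up to 3 called genes in each direction per list, the 3 genes nearest to each member, and markers, of which some are not reported here. Irf8, Cd79a, Foxo1 and the list genes under 1 TPM were named in addition after their values were seen. Alternatives covered filters, pseudocounts, FPKM, scaling, the variance model, a replicate block and leaving out each pool. Adjusting for transcript length and GC content (86.3% of tested genes) was chosen after seeing the data.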

Additional observations from a re-analysis of the deposited data

How the results depend on the processing

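Of 342 alternative values for 22 results, 334 kept their direction and call, or stayed close in size. They include the ratios between members under FPKM and under scaling of each pool. Those ratios could not change, because a factor per pool cancels within a pool, so they say nothing on stability. The increases of Tcf3, Tcf4, Id2, Ikzf1 and Ikzf3 and the decrease of Ebf1 were called in all 18 alternatives for each gene. The log2 fold change ranged from 1.02 to 1.15 for Tcf3, from 0.93 to 1.19 for Tcf4, from 1.42 to 2.06 for Id2, from 0.72 to 0.86 for Ikzf1, from 0.41 to 0.62 for Ikzf3 and from -0.83 to -0.59 for Ebf1. Pax5 was called in 17 of 18, with adjusted p in limma between 0.00305 and 0.0624. Leaving out each pool in turn gave log2 fold changes between -0.39 and -0.23 for Pax5, between 0.08 and 0.27 for Id3 and between -0.10 and -0.02 for Spib, and it gave between 1 and 3 members called lower. Quantile normalization moved Spib to -0.21, which was then called. The log2 difference in the ratio of Tcf3 to Tcf4 was 0.02 under quantile normalization and ranged from -0.06 to 0.07 when a pool was left out, so its sign is not determined. The cause was not tested.

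Whether GC and naive pools with the same number share mice is not given in the sources used here, and the numbers were not treated as pairs. The correlation of deviations from the group means was between 0.022 and 0.083 for pools with the same number and between -0.075 and 0.030 for others, and each GC pool correlated best with the naive pool of its own number. With the replicate number as a block, Spi1 (0.19 on the log2 scale, adjusted p = 0.0339 in limma) was called as well, and 6 members were higher and 2 lower. With the block and the correction for GC content and length together, Spi1 was at 0.10 (adjusted p = 0.117) and 5 members were higher. With the block, 4342 of all tested genes were higher and 3618 lower, against 4540 and 3852 without it. After the correction for GC content and length, which covers 11031 genes, the median log2 fold change was -0.078, beside 0.031 over all 12785 tested genes without it, and the same 7 members were called. For Id3, Spi1 and Spib, a p that misses the threshold does not show that the populations were alike.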
